A study of Mus musculus with 6 samples.

Results

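The enzymes described here build and harden collagen: the lysyl oxidases Lox, Loxl1, Loxl2, Loxl3 and Loxl4, the lysyl hydroxylases Plod1, Plod2 and Plod3, and the prolyl 4-hydroxylase alpha subunits P4ha1 and P4ha2. They were chosen by symbol, and all 10 had a row among the 16289 genes of the deposited count table. Their transcripts were measured by RNA-seq in injured tibialis anterior, a muscle of the shin, from 12-week-old male wild-type mice of the strain C57BL/6J. In the glycerol+melatonin group, 3 mice had a glycerol injection, a muscle injury model in which scar and fat form beside new fibres, and received melatonin, the pineal hormone. In the glycerol group, 3 mice had the same injection with a control treatment. Every mouse in the series was injured, and muscle was taken 14 days after the injection. How melatonin was dosed was not stated in the labels, and the extraction text names longissimus dorsi, a back muscle, where the tissue label names tibialis anterior.

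Collagen chains are modified while they are still in the endoplasmic reticulum. Prolyl 4-hydroxylases convert proline to hydroxyproline, which keeps the triple helix stable at body temperature, and lysyl hydroxylases convert lysine to hydroxylysine, the site for sugars and for the stronger kinds of crosslink. Outside the cell, the copper-dependent lysyl oxidases turn lysine and hydroxylysine into reactive aldehydes that join neighbouring collagen and elastin molecules. In muscle these genes are known mainly from fibroblasts and fibro-adipogenic progenitors, the stromal cells that lay down matrix after injury.

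Total counts per library ran from 41204718 to 47945178 in glycerol+melatonin and from 39310361 to 48879045 in glycerol muscle. Every member had at least 27 counts in every library. Markers of muscle fibres dominated all 6 libraries, with skeletal actin Acta1 at 24030 to 37500 CPM in glycerol+melatonin and 35251 to 41229 CPM in glycerol muscle (CPM are counts scaled to a common library total with TMM factors). Across all genes, 12 of 16259 tested (0.0738%) passed edgeR's quasi-likelihood test at a Benjamini-Hochberg adjusted p under 0.05. In bulk muscle, fewer cells of a type and less RNA per cell cannot be told apart.

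Of the 10 enzyme genes, 0 passed that test. Loxl2 and Loxl4 had the largest differences, both lower in glycerol+melatonin muscle, and the other 8 lay between -0.32 and 0.32 on the log2 scale. At an unadjusted p under 0.05, 2 of 10 were lower and 0 higher, beside 9.39% lower and 10.1% higher among all genes. The groups did not overlap in 2 of 10 as lower and 0 as higher, beside 12.5% and 13.6% of all genes. DESeq2 called 2 of 10 lower, beside 2.8% of the 15011 genes to which it gave an adjusted p. By limma-voom with sample weights 1 of 10 was called lower (0.609% of all genes). The median log2 fold change of the 10 was 0.02, as was that of all genes, at 0.02. With 10 genes, these counts say nothing about the set as a whole, and the values below are those of single genes.

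**Figure D1:**
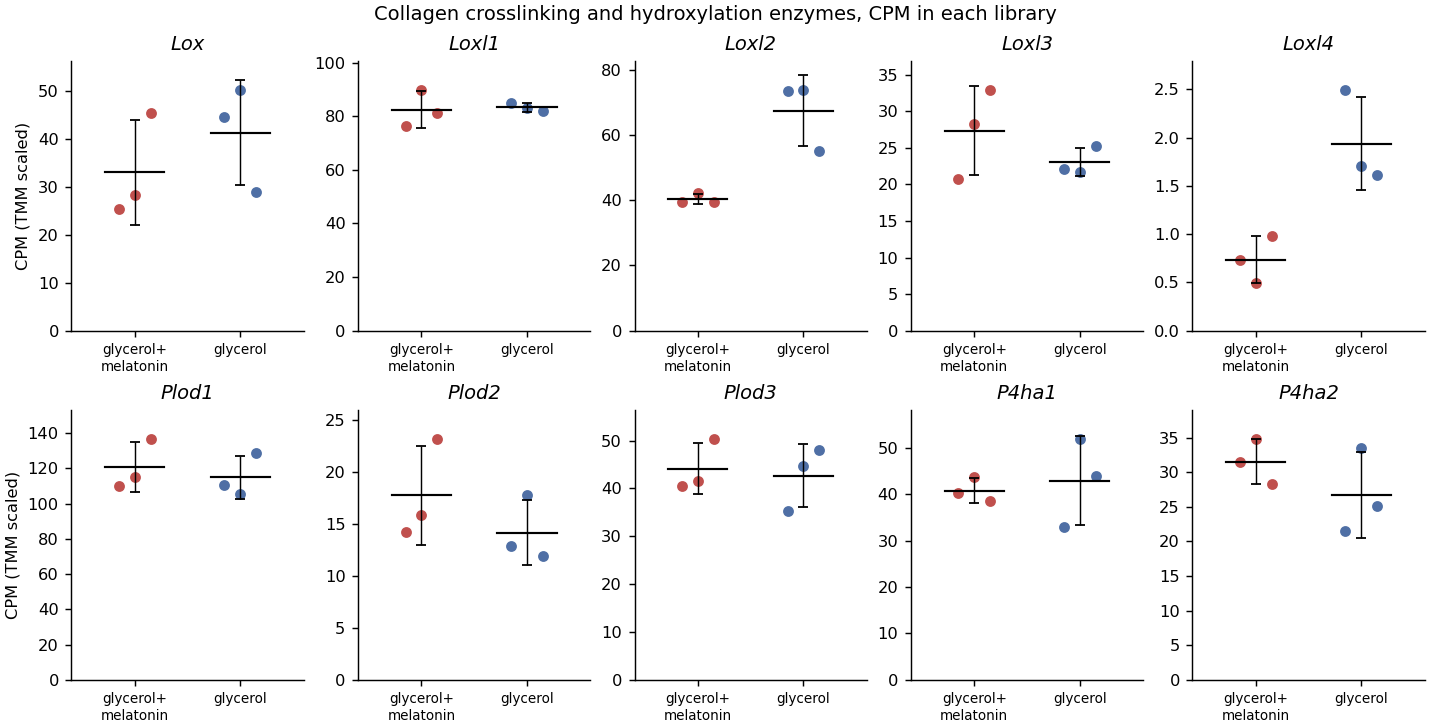
CPM (TMM scaled) of the 10 enzyme genes in each library, with glycerol+melatonin on the left and glycerol on the right of each panel. Points are mice, lines are means and bars are SD (n = 3 per group). Only Loxl2 and Loxl4 show groups that do not overlap: Loxl2 lies at 39.6 to 42.1 CPM in glycerol+melatonin and 55.1 to 73.8 CPM in glycerol muscle.

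Loxl2 is a lysyl oxidase-like enzyme with scavenger receptor domains that acts on collagen IV and fibrillar collagen and is known from fibrosis. It lies on chromosome 14 from 69609068 to 69695834 on the plus strand of GRCm38 (ENSMUSG00000034205). It had 39.6, 42.1 and 39.6 CPM in glycerol+melatonin muscle, against 73.6, 73.8 and 55.1 CPM in glycerol muscle. All glycerol+melatonin mice were below all glycerol mice, with glycerol replicate 3 nearest to them. The means were 40.4 ± 1.46 CPM in glycerol+melatonin and 67.5 ± 10.8 CPM in glycerol muscle (SD, n = 3 each), and the log2 fold change was -0.74 ± 0.16 (SE, 95% interval -1.11 to -0.37; edgeR adjusted p = 0.132). DESeq2 gave an adjusted p of 0.00887 and limma-voom with sample weights one of 0.0485, so the call depends on the tool.

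An antisense gene, Gm27177, shares 301 exon bases with Loxl2 on the other strand, and whether reads were counted by strand was not stated. Gm27177 itself had 13.2, 17.6 and 8.53 CPM in glycerol+melatonin muscle, against 13.7, 13.2 and 16.5 CPM in glycerol muscle. These groups overlap. With the counts of both genes summed, Loxl2 was at -0.62 (edgeR adjusted p = 0.141).

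Loxl4, a related enzyme whose transcript was the scarcest of the 10, lies on chromosome 19 from 42593982 to 42612813 on the minus strand (ENSMUSG00000025185). It had 32, 27 and 46 raw counts in glycerol+melatonin libraries, against 101, 74 and 66 in glycerol libraries. In CPM these were 0.731, 0.498 and 0.979 in glycerol+melatonin muscle, against 2.50, 1.70 and 1.62 in glycerol muscle. Every glycerol+melatonin mouse was below every glycerol mouse. The means were 0.736 ± 0.240 CPM in glycerol+melatonin and 1.94 ± 0.484 CPM in glycerol muscle (SD, n = 3 each), and the log2 fold change was -1.40 ± 0.34 (SE, 95% interval -2.18 to -0.62; edgeR adjusted p = 0.138). The DESeq2 adjusted p was 0.0147 and that of limma-voom with sample weights was 0.0541. The 95% interval of Loxl4 contains the value of Loxl2, so that a larger difference in Loxl4 was not shown.

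Lox, the founding member, crosslinks collagen and elastin. It had 25.3, 28.3 and 45.5 CPM in glycerol+melatonin muscle, against 44.6, 50.2 and 29.0 CPM in glycerol muscle. Glycerol+melatonin replicate 3 lay with the 2 higher glycerol mice, and glycerol replicate 3 lay with the 2 lower glycerol+melatonin mice. Lox was at -0.32 ± 0.27 (95% interval -0.95 to 0.30; edgeR adjusted p = 0.529). Without glycerol+melatonin replicate 3 it was at -0.62, and without glycerol replicate 2 or glycerol+melatonin replicate 1 it was at -0.16.

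Loxl1, which is required for elastic fibres, was the most even of the family. It had 76.3, 89.8 and 81.1 CPM in glycerol+melatonin muscle, against 85.1, 83.0 and 82.0 CPM in glycerol muscle. The glycerol mice lay inside the range of the glycerol+melatonin mice. Loxl1 was at -0.02 ± 0.14 (95% interval -0.33 to 0.30; edgeR adjusted p = 0.961), and the sign turned under 4 of the other scalings and tests.

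Loxl3, another scavenger receptor-containing member, had 20.8, 28.3 and 32.9 CPM in glycerol+melatonin muscle, against 22.2, 21.7 and 25.2 CPM in glycerol muscle. The groups overlapped through glycerol+melatonin replicate 1, the lowest library. Loxl3 was at 0.25 ± 0.19 (95% interval -0.19 to 0.69; edgeR adjusted p = 0.491). It was at 0.10 without glycerol+melatonin replicate 3 and at 0.41 without glycerol+melatonin replicate 1. It shares 535 exon bases with the mitochondrial protease gene Htra2 on the other strand, which was at 0.26 ± 0.14 and whose groups did not overlap.

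**Figure D2:**
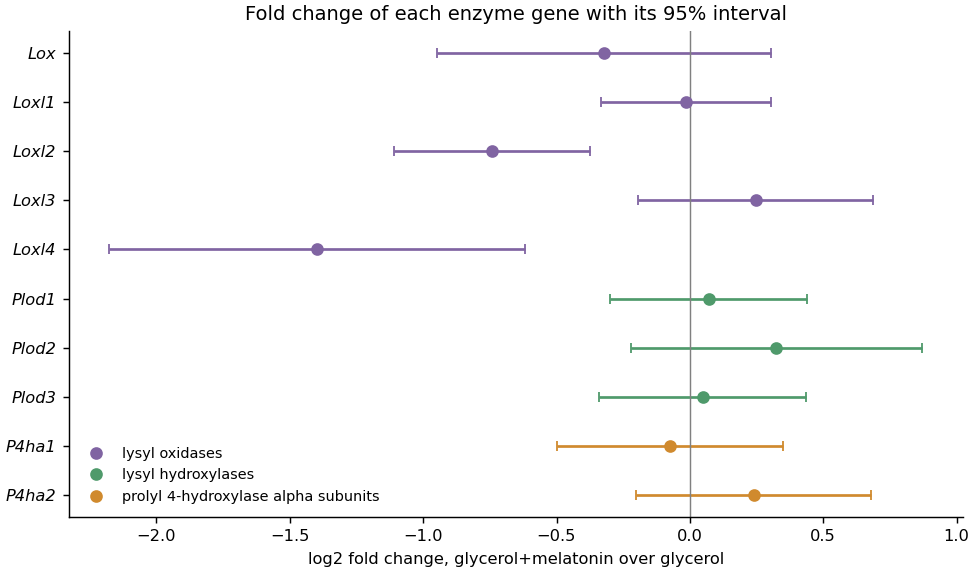
Log2 fold change of glycerol+melatonin over glycerol for each enzyme gene (points), with its 95% interval (bars) from the edgeR fit over all genes. The intervals of Loxl2 (-1.11 to -0.37) and Loxl4 (-2.18 to -0.62) lie below 0, and those of the other 8 genes include 0. Intervals are per gene and not adjusted for the number of genes.

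Of the lysyl hydroxylases, which supply the hydroxylysine that these crosslinks use, 0 of 3 separated the groups. Plod1, which hydroxylates the triple helix, had 110.1, 115.0 and 136.6 CPM in glycerol+melatonin muscle, against 110.4, 105.3 and 128.7 CPM in glycerol muscle. Replicate 3 was the highest library in both groups. Plod1 was at 0.07 ± 0.16 (95% interval -0.30 to 0.44; edgeR adjusted p = 0.837). Plod3, which also transfers sugars to hydroxylysine, had 40.5, 41.7 and 50.3 CPM in glycerol+melatonin muscle, against 35.4, 44.7 and 48.0 CPM in glycerol muscle, and was at 0.05 ± 0.17 (95% interval -0.34 to 0.44; edgeR adjusted p = 0.903). It shares 529 exon bases with Znhit1 on the other strand.

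Plod2 hydroxylates the ends of collagen chains, the telopeptides, and is known from fibrosis for the stable crosslinks that this allows. It had 14.3, 15.9 and 23.2 CPM in glycerol+melatonin muscle, against 12.9, 17.8 and 11.9 CPM in glycerol muscle. Only glycerol+melatonin replicate 3 was above the glycerol range. Plod2 was at 0.32 ± 0.24 (95% interval -0.22 to 0.87; edgeR adjusted p = 0.467), at 0.09 without that mouse and at 0.52 without glycerol replicate 2. The interval does not include the value of Loxl2, which among the other members only the intervals of Lox and Loxl4 include. Plod2 shares 346 exon bases with Gm38391 on the other strand, which had 12 to 57 counts per library.

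The prolyl 4-hydroxylase is a tetramer of alpha subunits, P4ha1 or P4ha2, which hold the active site, and of the beta subunit P4hb, which also serves as protein disulfide isomerase. P4ha1 (chromosome 10 from 59323296 to 59373304, plus strand, ENSMUSG00000019916) had 40.2, 43.7 and 38.5 CPM in glycerol+melatonin muscle, against 32.8, 51.9 and 44.0 CPM in glycerol muscle. The glycerol+melatonin mice lay inside the glycerol range. P4ha1 was at -0.07 ± 0.19 (95% interval -0.50 to 0.35; edgeR adjusted p = 0.856). P4ha2 (chromosome 11 from 54100095 to 54131665, plus strand, ENSMUSG00000018906) had 31.4, 34.8 and 28.3 CPM in glycerol+melatonin muscle, against 21.5, 33.5 and 25.1 CPM in glycerol muscle. Glycerol replicate 1 was the lowest library for both alpha subunits and glycerol replicate 2 was high for both. P4ha2 was at 0.24 ± 0.19 (95% interval -0.20 to 0.68; edgeR adjusted p = 0.509), at 0.10 without glycerol replicate 1 and at 0.44 without glycerol replicate 2. The partner P4hb averaged 225.7 ± 31.4 CPM in glycerol+melatonin and 224.3 ± 27.5 CPM in glycerol muscle (SD, n = 3 each; 0.01 ± 0.18).

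Genes of the alpha subunits are known targets of the hypoxia-inducible factors. The core site of these factors was searched only in the form ACGTG, so a window without a match may hold another form. Promoters (250 bases before to 50 after the start, RefSeq, GRCm38.p6) were looked up by symbol. Those of 5 of the 10 members were searched: Plod1, Plod3, P4ha1, P4ha2 and Loxl4. Promoters of the other members, Lox among them, were not searched, so whether they hold a match was not tested. The sequences shown are those of both alpha subunits, whose balance is described below, and of Loxl4. Of the 2 members whose groups did not overlap, Loxl4 was the one with a searched promoter. Each sequence is given in the direction of the gene. The P4ha2 window follows RefSeq's start site, which lies 829 bases downstream of the gene start given above from GENCODE and thus inside that gene, while those of P4ha1 and Loxl4 lie at most 7 bases from theirs. Capitals mark ACGTG or its reverse complement CACGT.
P4ha1, chr10:59323046-59323345, plus strand: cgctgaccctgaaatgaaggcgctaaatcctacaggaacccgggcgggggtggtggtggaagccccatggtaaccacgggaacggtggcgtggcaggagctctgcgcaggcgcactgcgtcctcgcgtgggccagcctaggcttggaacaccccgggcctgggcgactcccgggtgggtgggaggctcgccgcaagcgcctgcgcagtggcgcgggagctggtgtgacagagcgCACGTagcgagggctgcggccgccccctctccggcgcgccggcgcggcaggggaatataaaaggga
P4ha2, chr11:54100674-54100973, plus strand: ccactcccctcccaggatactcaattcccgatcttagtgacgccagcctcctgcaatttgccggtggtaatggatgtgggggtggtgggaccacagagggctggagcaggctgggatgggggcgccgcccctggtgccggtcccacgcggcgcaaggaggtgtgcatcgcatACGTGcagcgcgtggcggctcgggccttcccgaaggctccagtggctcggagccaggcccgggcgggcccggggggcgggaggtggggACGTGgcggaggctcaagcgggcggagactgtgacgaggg
Loxl4, chr19:42612757-42613056, minus strand: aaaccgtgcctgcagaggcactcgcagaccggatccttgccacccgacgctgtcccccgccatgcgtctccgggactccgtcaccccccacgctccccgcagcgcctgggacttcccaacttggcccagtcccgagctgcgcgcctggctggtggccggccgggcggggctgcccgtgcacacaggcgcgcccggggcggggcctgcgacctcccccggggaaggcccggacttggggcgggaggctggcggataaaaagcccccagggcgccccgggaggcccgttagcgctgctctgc
The P4ha1 window held 1 match, beginning at base -16 from the start site, and the P4ha2 window held 2, at -78 and 11. The Loxl4 window had 0 matches, as had that of Plod1, and the Plod3 window had 1. Among 32851 promoters of the same length, 19.6% held a match on either strand, overlapping matches counted separately. Other motifs searched on both strands were the SMAD element GTCTAGAC (in 0.213% of promoters) and the AP-1 site TGANTCA (7.81%), with 0 matches in all 5 windows, the TATA box TATAAA (13.6%), with 1 each in Plod1 and P4ha1, and the GC box GGGCGG (35.7%), with 2 in P4ha1, 4 in P4ha2, 3 in Loxl4, 3 in Plod1 and 0 in Plod3. A match is a description of these letters and not a shown binding site.

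Levels of different genes were compared as CPM per kilobase of the longest annotated transcript. Plod1 (29.4 ± 3.45 in glycerol+melatonin, 28.02 ± 3.01 in glycerol) and Loxl1 (25.0 ± 2.08 in glycerol+melatonin and 25.3 ± 0.481 in glycerol) were highest and overlapped with each other. Plod3 followed, at 13.5 ± 1.65 in glycerol+melatonin and 13.02 ± 1.996 in glycerol muscle. In glycerol muscle Loxl2 came next at 12.7 ± 2.03, overlapping with Plod3 above and P4ha1 below it (10.6 ± 2.37). In glycerol+melatonin muscle Loxl2 was at 7.60 ± 0.274, behind P4ha2 (10.3 ± 1.06) and P4ha1 (10.1 ± 0.659). By this length, all Loxl2 values there were below those of both alpha subunits. Lox, Loxl3 and Plod2 came after these in both groups, with neighbours Lox and Loxl3 overlapping. Loxl4 was last, at 0.197 ± 0.0643 in glycerol+melatonin and 0.519 ± 0.130 in glycerol muscle. The order among Plod1, Loxl1, Plod3, Loxl2 and P4ha2 rests on the transcript length used. By all annotated exon bases Loxl1 was first and P4ha2 eighth of 10 in glycerol muscle. By these bases (6239 for P4ha2 and 5405 for Loxl2), P4ha2 was below Loxl2 in every glycerol+melatonin library, while P4ha1 stayed above it.

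The make-up of each family was then compared as each member's share of its family's CPM per kilobase, a measure within a library that does not depend on scaling between libraries. The Loxl2 share of the lysyl oxidase family was 18.1%, 16.4% and 14.9% in glycerol+melatonin muscle, against 25.1%, 25.1% and 21.6% in glycerol muscle. The groups were apart, with a difference of -7.46 percentage points (means 16.5% ± 1.59 in glycerol+melatonin and 23.9% ± 2.01 in glycerol, SD, n = 3 each). Loxl1 made up the largest part in all libraries, at 54.0% ± 4.10 in glycerol+melatonin and 48.0% ± 3.40 in glycerol muscle. Loxl3 was at 14.3% ± 1.89 in glycerol+melatonin and 10.7% ± 1.83 in glycerol muscle.

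The P4ha1 share of both alpha subunits was 49.2%, 48.7% and 50.7% in glycerol+melatonin muscle, against 53.6%, 54.0% and 57.0% in glycerol muscle. Here too the groups were apart, by -5.32 percentage points (means 49.55% ± 1.04 in glycerol+melatonin and 54.9% ± 1.88 in glycerol), although neither gene alone separated them. The level of this share rests on the length used, as P4ha2 has 3060 bases in its longest transcript and 6239 in all exons. By all annotated exon bases the P4ha1 share was higher in both groups, with a difference of -4.585 percentage points. The Plod2 share of the lysyl hydroxylases was 9.03%, 9.61% and 11.5% in glycerol+melatonin muscle, against 8.54%, 10.98% and 6.59% in glycerol muscle, and the groups overlapped. The exact two-sided permutation p was 0.1 for the Loxl2 and P4ha1 shares, the smallest that 3 against 3 mice can give, and 0.4 for Plod2. Over the 6 shares and ratios tested, adjusted p was 0.12 for the first pair and 0.4 for Plod2. None passed 0.05, and with a smallest possible p of 0.1 none could have. Loxl2 was singled out with earlier results of these data known, so its share is no independent support for its lower level.

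**Figure D3:**
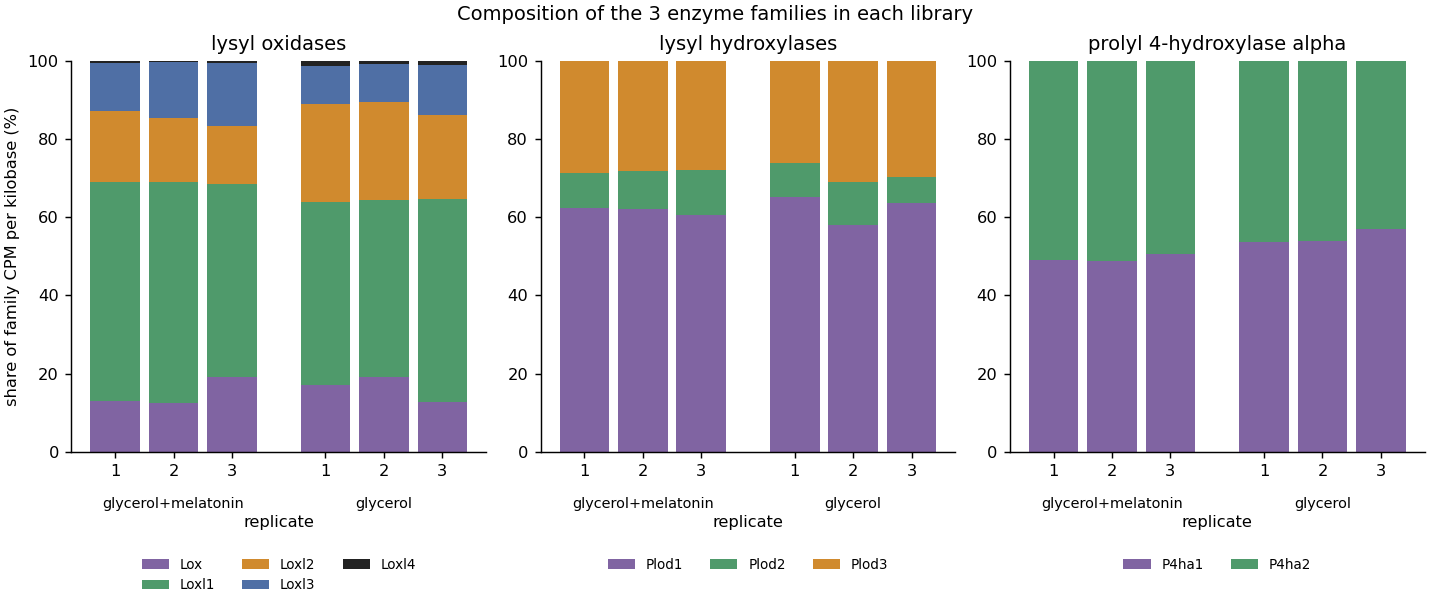
Share of each member in its family's CPM per kilobase (%), as stacked bars, for the 3 glycerol+melatonin and 3 glycerol libraries. The Loxl2 band is 14.9% to 18.1% of the lysyl oxidases in glycerol+melatonin and 21.6% to 25.1% in glycerol muscle, and the P4ha1 part is 48.7% to 50.7% in glycerol+melatonin and 53.6% to 57.0% in glycerol muscle.

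The substrates of these enzymes had mostly lower values in glycerol+melatonin muscle. The list of crosslinked substrates held 14 collagen and elastin genes, and whether lysyl oxidases crosslink the product of each was not tested. Of these, 14 were below 0 with a median of -0.39, beside 48.3% of all genes below 0. None passed by edgeR, 5 had an unadjusted p under 0.05 and DESeq2 called 1, Col12a1. Col1a1, the main chain of type I collagen, averaged 1828 ± 403 CPM in glycerol+melatonin and 2400 ± 404 CPM in glycerol muscle (-0.39 ± 0.24; edgeR adjusted p = 0.389). Its partner Col1a2 was at -0.39 ± 0.19 (edgeR adjusted p = 0.306), and Col3a1, the chain of type III collagen, was at -0.37 ± 0.22 (edgeR adjusted p = 0.383). Col12a1, which bridges fibrils, had the smallest p of the list (36.2 ± 5.11 CPM in glycerol+melatonin and 63.5 ± 10.1 CPM in glycerol, -0.81 ± 0.18; edgeR adjusted p = 0.132), followed by Col6a3 (-0.62 ± 0.22) and Col11a1 (-0.64 ± 0.23). Summed over the list, substrates were at 8754 to 10464 CPM in glycerol+melatonin and 12454 to 12769 CPM in glycerol muscle.

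Enzyme transcript per fibrillar collagen transcript was taken as the log2 ratio of summed CPM per kilobase of a family to that of Col1a1, Col1a2 and Col3a1 in the same library. For the lysyl hydroxylases it was -4.49, -4.76 and -4.34 in glycerol+melatonin muscle, against -5.09, -5.06 and -4.84 in glycerol muscle. All glycerol+melatonin libraries were above all glycerol libraries, by a mean of 0.47. For the prolyl 4-hydroxylase alpha subunits it was -5.58, -5.78 and -5.89 in glycerol+melatonin muscle, against -6.54, -5.95 and -6.21 in glycerol muscle, a mean difference of 0.48. These groups were apart as well, with glycerol replicate 2 near the glycerol+melatonin range, but overlapped when all annotated exon bases were taken as the length (0.43; exact permutation p = 0.2). For the whole lysyl oxidase family it was -4.55, -4.66 and -4.48 in glycerol+melatonin muscle, against -4.67, -4.73 and -4.88 in glycerol muscle, a mean difference of 0.20. The nearest libraries of the groups almost met, at -4.66 and -4.67, and the groups overlapped when CPM without a length was used (0.15; exact permutation p = 0.3). Per kilobase of the longest transcript, each had an exact two-sided permutation p of 0.1, the smallest possible, and an adjusted p of 0.12. The 3 ratios share the collagen values, so they are not independent of each other. Those collagens were at -0.39, -0.39 and -0.37 (Col1a1, Col1a2 and Col3a1), while the median of all genes was 0.02. A gene at that median would also have a higher ratio in glycerol+melatonin muscle, so the higher ratios are not particular to these enzymes.

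Loxl2 alone had a lower mean ratio in glycerol+melatonin muscle, but its groups overlapped. In CPM per summed CPM of those 3 collagens, its log2 ratio was -7.09, -7.34 and -7.30 in glycerol+melatonin muscle, against -6.75, -6.80 and -7.17 in glycerol muscle, where glycerol replicate 3 lay inside the glycerol+melatonin range. The mean difference was -0.34. For Loxl4 the groups were apart on the same measure, with a mean difference of -1.04. These single-gene ratios were chosen after the values were seen and were not tested.

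**Figure D4:**
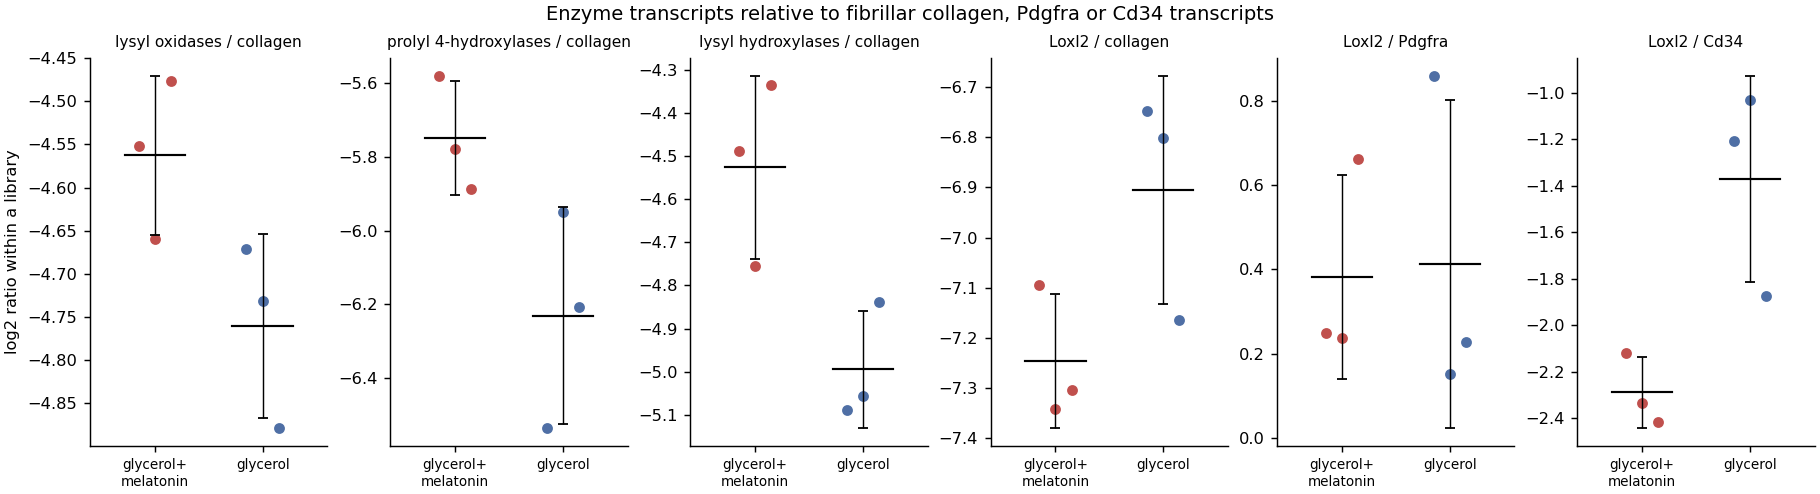
Log2 ratio within a library of each enzyme family (CPM per kilobase), or of Loxl2 alone (CPM), to the summed fibrillar collagens Col1a1, Col1a2 and Col3a1. Further panels show the ratio of Loxl2 to Pdgfra and to Cd34, both from the list of progenitor and fibroblast markers. Points are mice, lines means and bars SD (n = 3 per group), with a separate axis for each panel that does not start at 0. The 3 families lie higher in glycerol+melatonin, by 0.20, 0.48 and 0.47, while Loxl2 differs by -0.03 relative to Pdgfra and by -0.92 relative to Cd34.

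Markers of stromal cells were divided. Of 13 markers of fibro-adipogenic progenitors and fibroblasts, 9 were below 0, 6 of them with an unadjusted p under 0.05, 4 were above 0, and none passed by edgeR (median -0.58). Their summed level was 1406 to 1691 CPM in glycerol+melatonin and 1762 to 2573 CPM in glycerol muscle. The smallest p-values were those of the microfibril gene Fbn1 (-0.79 ± 0.14), the transcription factor Osr1 (-0.65 ± 0.16) and the proteoglycan Dcn (-0.81 ± 0.21), and DESeq2 called these 3. Pdgfra, the receptor that marks fibro-adipogenic progenitors, was at -0.71 ± 0.22. The 4 markers above 0 were Cd34 (0.19 ± 0.18), Ly6a (0.09 ± 0.34), Pi16 (0.16 ± 0.16) and Clec3b (0.09 ± 0.26). Which cells of the muscle these transcripts came from was not tested.

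Since the markers differed among themselves, the level of Loxl2 relative to them depended on the marker. The log2 ratio of Loxl2 to a marker in the same library was lower in glycerol+melatonin muscle for 10 of the 13, with differences from -0.94 to 0.06 and a median of -0.15. Relative to Pdgfra the means were 0.38 ± 0.24 in glycerol+melatonin and 0.41 ± 0.39 in glycerol muscle (a difference of -0.03), and the groups overlapped, as they did for 10 markers in all. Relative to Cd34 they were -2.29 ± 0.15 in glycerol+melatonin and -1.37 ± 0.44 in glycerol muscle (a difference of -0.92), and the groups were apart, as they were for Pi16 (-0.89) and Mfap5 (-0.60). For Loxl4 the ratio was lower for 13 of 13 markers, by -1.63 to -0.63 with a median of -0.85, with groups apart for 6 and overlapping for 7. All markers of the list are counted here, but the ratios were taken after the values were seen and were not tested.

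Of 10 tendon markers, 8 were below 0, with summed levels of 323.9 to 631.4 CPM in glycerol+melatonin and 656.3 to 764.4 CPM in glycerol muscle. Their smallest p-values were those of Fmod, described below, of the matricellular gene Thbs4 (-0.57 ± 0.24) and of the proteoglycan Kera (-0.90 ± 0.41). The 2 tendon markers above 0 were Scx (0.70 ± 0.32) and Egr1 (0.18 ± 0.15). Of 9 cartilage and bone markers, 8 were below 0, with sums of 37.7 to 55.5 CPM in glycerol+melatonin and 53.2 to 69.4 CPM in glycerol muscle. Bone sialoprotein Ibsp (-3.37 ± 0.62) and Col10a1 (-1.86 ± 0.34), both called by DESeq2, led this list, before the bone transcription factor Runx2 (-0.38 ± 0.20). In none of these lists was a tested marker at 0 in all libraries, but none could be, as the smallest gene total deposited was 28. The part of these cells in the levels of Loxl2 and Loxl4 was not tested.

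Among the partners of these enzymes, differences were spread in both directions. Of 18 other enzymes and chaperones of the endoplasmic reticulum, 10 were below 0 and 8 above (median -0.05), and none passed by edgeR or DESeq2. The smallest p-values were those of Mia3, which exports procollagen (-0.40 ± 0.16), of the retrieval receptor Kdelr2 (0.33 ± 0.14) and of the prolyl 3-hydroxylase P3h1. P3h1 had 10.6, 9.87 and 25.9 CPM in glycerol+melatonin muscle, against 28.4, 25.75 and 26.8 CPM in glycerol muscle, so that glycerol+melatonin replicate 3 lay at the glycerol level. The third alpha subunit gene, P4ha3, was at 0.39 ± 0.40. Of 16 genes of procollagen processing and crosslink partners, 12 were below 0 and 4 had an unadjusted p under 0.05 as lower, with 0 as higher (median -0.20). Pcolce2, an enhancer of C-propeptide removal, was at -0.91 ± 0.27, and Fmod, a fibril-binding proteoglycan that modulates lysyl oxidase, at -0.99 ± 0.32. DESeq2 called these 2 genes. Adamts2, which removes N-propeptides, was at -0.43 ± 0.16 and was not called by either tool.

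Lysyl oxidases receive their copper in the secretory pathway through the pump Atp7a, to which the chaperone Atox1 hands it. Atp7a had 13, 25 and 18 raw counts in glycerol+melatonin libraries, against 61, 58 and 30 in glycerol libraries, which gave -1.64 ± 0.39 on the log2 scale (edgeR adjusted p = 0.136). Atox1 had 32.0, 45.8 and 37.8 CPM in glycerol+melatonin muscle, against 14.2, 14.2 and 29.7 CPM in glycerol muscle (0.99 ± 0.30; edgeR adjusted p = 0.173). Both genes separated the groups, in opposite directions, and DESeq2 called both. Slc40a1, the iron exporter, was at -0.77 ± 0.30 and completed the 3 smallest p-values of 14 tested genes of cofactor supply, of which 9 were below 0 (median -0.07).

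Of 19 targets of the hypoxia-inducible factors, 10 were below 0 and 9 above (median -0.04), none passing by edgeR. Vegfa, the vascular growth factor, averaged 300.1 ± 41.7 CPM in glycerol+melatonin and 170.0 ± 28.8 CPM in glycerol muscle (0.82 ± 0.19; edgeR adjusted p = 0.134; DESeq2 adjusted p = 0.00849). Pdk1, the kinase that inhibits pyruvate dehydrogenase, was at -0.56 ± 0.17, and Mxi1, an antagonist of MYC, at -0.57 ± 0.20. Of 14 genes of the TGF-beta pathway, a known inducer of collagen enzymes, 10 were below 0 (median -0.10) and 0 were called by edgeR or DESeq2. Ccn2, a matricellular target gene, was at 0.71 ± 0.25, the ligand Tgfb2 at -0.47 ± 0.18 and the signal mediator Smad4 at -0.40 ± 0.16.

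**Figure D5:**
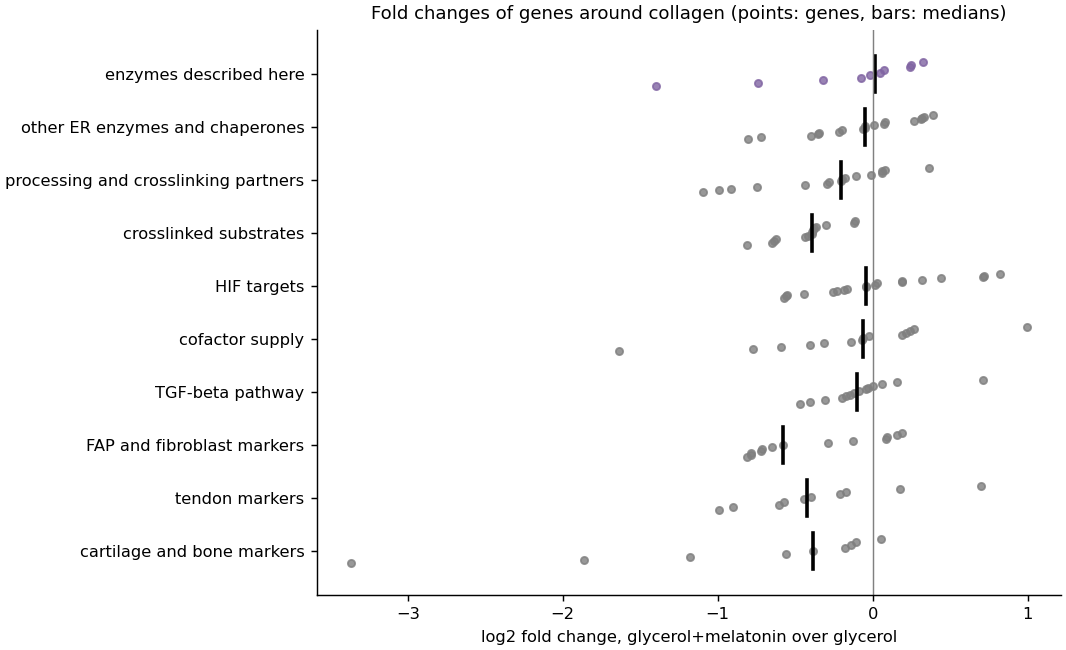
Log2 fold change of glycerol+melatonin over glycerol for every tested gene (points) of the enzyme set and of 9 lists around it, with the list median as a bar. HIF is hypoxia-inducible factor, ER endoplasmic reticulum and FAP fibro-adipogenic progenitor. All 14 genes listed as crosslinked substrates lie left of 0 (median -0.39), while the 10 enzymes have a median of 0.02.

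The genes with a pattern most like that of Loxl2 were sought among 10109 named genes with a mean of at least 5 CPM, by the root mean square difference of centred log2 CPM over the 6 libraries. Nearest were Mvb12b, a subunit of the ESCRT-I sorting complex (0.0575), the zinc finger gene Zfp84 (0.0643), Cobll1 (0.0668), the DNA repair gene Rad23b (0.0679) and Gatad2b, of the NuRD chromatin complex (0.0748). Mvb12b had 30.9, 31.8 and 28.2 CPM in glycerol+melatonin muscle, against 56.4, 58.2 and 44.7 CPM in glycerol muscle. As with Loxl2, glycerol replicate 3 was the nearest of its group to the glycerol+melatonin mice. Mvb12b was picked for its likeness to Loxl2 in these same libraries, so this is no separate observation.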

How the data were processed

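RNA-seq was made from muscle of 6 mice, 3 per group; the series' text calls them biological replicates. Raw read counts per Ensembl gene were deposited by the authors in 1 table. Per the submitters' processing notes, the tools included Trimmomatic 0.36, HISAT2 2.0, StringTie 1.3.3b and DESeq2 1.12.4, on mm10; the counter, its annotation and its handling of strand and multiple matches were not stated. The smallest gene total was 28, so the table holds no gene with a lower total.

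Columns were matched to samples by treatment code and replicate number. Symbols (16260 of 16289 genes), positions and transcript lengths came from GENCODE M21 on GRCm38, the assembly of mm10. Differences were tested in R 4.3.3 by the quasi-likelihood test of edgeR 4.0.16 on all genes kept by filterByExpr, over 6 libraries scaled by TMM, without covariates; an adjusted p under 0.05 passed. SE is the log2 fold change divided by the square root of F. Log2 CPM for patterns used a prior count of 2. DESeq2 1.42.0 and limma 3.58.1 were alternatives. Library totals were 39310361 to 48879045 counts; the scarcest member, Loxl4, had 27 to 101 counts per library, which limits its precision most. Scripts were tested on simulated data.

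Members and lists were chosen with earlier results of these data known. Named besides the 10 members were the 3 genes with the smallest p of each list, the fibrillar collagens, P4hb and the 5 nearest patterns. P4ha3, Pdgfra, the other stromal markers, Scx, Egr1, Acta1 and overlapping partners were named outside that rule. The lists of macrophage, endothelial, fat and fibre markers had medians of -0.16, 0.08, -0.04 and -0.15 and 0 genes passing.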

Additional observations from a re-analysis of the deposited data

How the results depend on the processing

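The number of genes passing over all genes was 12, and 752 by DESeq2, 199 by limma-voom with sample weights, 7 with a transcript length offset and 0 with a replicate block (2991 genes at an unadjusted p under 0.05). Leaving out a library gave 6 to 27 (6 without glycerol replicate 1, 27 without glycerol replicate 3, 25 without glycerol+melatonin replicate 1 and 24 without glycerol+melatonin replicate 3). Of the enzymes, 0 passed, against 2 by DESeq2 (Loxl2 and Loxl4) and 1 by limma-voom (Loxl2), and 0 with each library left out. Over these settings Loxl2 ran from -0.86 to -0.51 and Loxl4 from -1.67 to -1.17. Scaling by library size alone moved the median of all genes to 0.23; relative to 0, Loxl1 was at 0.20 and P4ha1 at 0.14. Other turns of sign were Loxl1 at 0.0186 (upper quartile), 0.00649 (limma-voom) and 0.0402 (length offset), and P4ha1 at 0.00527 (limma-voom) and 0.0273 (length offset). With a library left out, Loxl1 ran from -0.0824 to 0.0367, P4ha1 from -0.233 to 0.0866, Plod1 from -0.0233 to 0.165 and Plod3 from -0.0706 to 0.143, while Loxl3 (0.10 to 0.41), Plod2 (0.09 to 0.52) and P4ha2 (0.10 to 0.44) kept their sign. The cause was not tested. The 6 shares and ratios kept their direction under every length measure and left-out library, but the groups overlapped for the lysyl oxidase ratio in CPM (exact permutation p = 0.3) and for the prolyl 4-hydroxylase ratio by union exon length (exact permutation p = 0.2), and the Plod2 share difference ran from 0.29 to 2.49 percentage points with a library left out (without glycerol replicates 3 and 2); union exon lengths and merged overlapping genes were added after seeing the data. Same-numbered libraries of the groups deviated with correlations of -0.01, -0.01 and -0.05, which show no shared pattern by number. Since deviations were taken from means of 3 mice, these values cannot show whether same-numbered mice shared a litter, batch or day.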

Other observations

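Markers of other cell types in the muscle had sums that overlapped between the groups, and 0 of them passed by edgeR. Of 10 macrophage markers, 7 were below 0; the scavenger receptor Cd163 was at -0.84 ± 0.24 (DESeq2 adjusted p = 0.0448), Mrc1 at -0.37 ± 0.18 and the Fc receptor Fcgr1 at 0.47 ± 0.24. Of 10 endothelial and smooth muscle markers, 6 were above 0, with Tagln at 0.69 ± 0.29, the tight junction gene Cldn5 at 0.69 ± 0.29 and Emcn at 0.46 ± 0.27. Glycerol+melatonin replicate 3 was the highest library for these 3 genes.

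Of 9 fat cell markers, 5 were below 0. Fabp4, a fatty acid binding protein also found in endothelium, was at 0.56 ± 0.22, while the fat droplet gene Cidec (-0.90 ± 0.81) and the adipokine Adipoq (-0.65 ± 0.68) had their highest level in glycerol replicate 3 and wide errors. Of 12 muscle fibre markers, 7 were below 0. The fast IIa myosin Myh2 was at 0.74 ± 0.28, the slow troponin Tnnt1 at 0.67 ± 0.36 and the fast IIb myosin Myh4 at -0.58 ± 0.31.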
